A study of Mus musculus with 2 samples.

Results

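The actin cytoskeleton genes described here are 44 genes that build, remodel or anchor actin filaments, chosen by name from the known roles of their proteins. They were followed in mouse macrophages without PAC1 and in those of their wild-type littermates. Of the 44 genes, 38 had at least 1 probe set of their own on the array, out of 8220 genes that could be named there. For Actr2, Arpc3, Evl, Tpm1 and Wasl no annotated probe set was found, and both probe sets of Arpc1b were also annotated to a second gene, so these 6 genes were not analysed here. Flna, Myl6 and Vil1 had signals under the floor on both arrays, which left 35 genes with a measured ratio.

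Dusp2 encodes PAC1, a nuclear phosphatase that switches MAP kinases off. The series held 2 Affymetrix arrays, each from thioglycollate-elicited mouse peritoneal macrophages that had received 100 ng/ml LPS, a bacterial cell-wall component, for 6 hours. One array held RNA of Pac1-/- mice (the knockout) and the other RNA of Pac1+/+ mice, their age-matched littermates (the wild type). Macrophages were collected 4 days after an injection of 2 ml of 3% thioglycollate and enriched by adherence for 2 hours, and per the labels 92 to 95% were positive for Mac-1. The sources used here do not give the age of the mice, their number per array, their strain or how the gene was inactivated. Both genotypes had received LPS, so the values describe levels after LPS and not a response to it. With 1 array per genotype there is no replicate check, no standard error and no test of any genotype difference below, and a gene is called higher or lower only for these 2 arrays. The number of arrays limits the precision.

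Actin monomers polymerise at the fast-growing barbed end of a filament and are released at the other end. The Arp2/3 complex starts branches on existing filaments, capping proteins stop growth, and cofilin and its partners take old filaments apart. In macrophages this turnover drives membrane ruffles, phagocytic cups, podosomes and migration, and LPS is known to make the cells spread. Because the same array cannot tell fewer cells from less RNA per cell, a level below refers to the RNA of the whole preparation.

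Values are MAS5 signals in arbitrary units. Both arrays had the same trimmed mean, with medians of 38 (knockout) and 35 (wild type). The floor was the median of all signals, 36.4. Dusp2, the check of the labels, was at 76.8 in the knockout against 333 in the wild type (23.1%). The sources used here do not say which part of the gene was changed or whether its probes lie there. All 8 macrophage markers were above the floor on both arrays, including Itgam (Mac-1) at 356 against 301 and Cd68 at 4582 against 3821. Their summed signal was 25877 against 22870, and 7 of the 8 had a ratio above 0. The exception was Msr1, at 1366 against 2171 (log2 ratio −0.67), the ratio furthest from 0 on that list. Of the 10 smooth muscle and stromal markers, whose cells are rich in actin, 8 were above the floor in the knockout against 7 in the wild type, with a summed signal of 1110 against 1360. Within that list Myh11 and Cnn1 were under the floor on both arrays, Tagln was at 47.0 against 51.5, and the smooth muscle actin gene Acta2 was at 52.2 against 133. Of the 8 markers above the floor on at least 1 array, 2 had a ratio above 0. These were Des, at 50.8 against 25.8 (below the floor), and Col1a2, at 246 against 232. The part of these cells in the results below was not tested. Of the other lists, 1 of 7 mesothelial and epithelial markers, 2 of 4 striated muscle markers, 0 of 2 platelet markers, 4 of 6 neutrophil markers, 3 of 3 B cell markers, 1 of 5 T and NK cell markers and 1 of 3 mast cell markers were above the floor on at least 1 array.

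After LPS the actin cytoskeleton genes were at nearly the same level on the arrays of both genotypes. Of the 35 genes above the floor, 19 had a log2 ratio of knockout over wild type above 0 and 16 below 0. Their median log2 ratio was 0.02, the same as that of all 5119 genes with a signal above the floor. The share of all those genes that was 2-fold or more apart was 2.31%, and 0 of the 35 actin genes were. At 1.5-fold the share was 12.1% of all genes, against 1 of 35 actin genes (Cap1, higher in the knockout). Of the 35 genes, 30 differed by less than 1.2-fold.

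The actin genes were also brighter than most, with a median signal of 1373 against 127 for all genes above the floor, and bright genes had closer ratios on these arrays. Among genes with a mean signal of 1000 or more, 0% of 492 were 2-fold apart and 1.22% were 1.5-fold apart. In that range 16 of 18 actin genes (88.9%) and 83.9% of all genes were within 1.2-fold. Among genes with a signal under 1000, 14 of 17 actin genes (82.4%) were within 1.2-fold, and 56.1% of all genes. Signals were not matched within these 2 ranges. All 35 actin genes were above the floor on both arrays, against 4400 of all 5119 genes. The shares within 1.2-fold were not tested against each other.

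**Figure D1:**
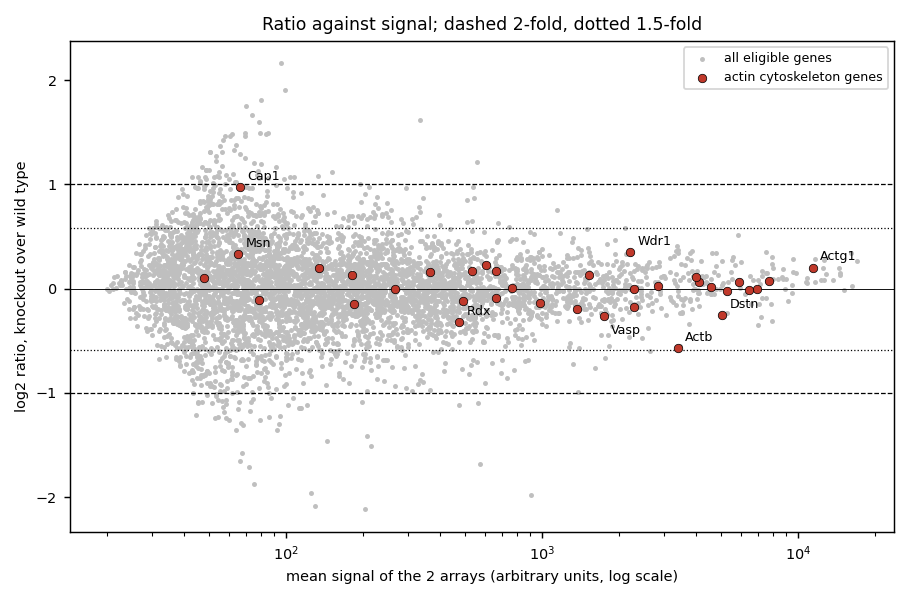
Log2 ratio of knockout over wild type against the mean signal of both arrays (log axis) for all 5119 genes above the floor (grey) and the 35 actin cytoskeleton genes (red), with 8 of them labelled. Cap1 lies between the 1.5-fold and 2-fold lines, Actb lies just inside the lower 1.5-fold line, and the other actin genes lie closer to 0.

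The actins themselves gave opposite ratios. Actg1, which encodes cytoplasmic gamma-actin, was at 12230 in the knockout against 10632 in the wild type (log2 ratio 0.20). It was slightly higher in the knockout. Actb, which encodes cytoplasmic beta-actin and is often used as a loading control, was at 2739 in the knockout against 4073 in the wild type from its brightest probe set (log2 ratio −0.57, 1.49-fold lower). This was the lowest ratio of the 35 genes.

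The array's own Actb control probe sets, which are kept apart from the gene values, did not show a lower level. The control at the 3′ end of the transcript was at 12988 in the knockout against 10543 in the wild type (log2 ratio 0.30). The middle control was at 6371 against 4641 (0.46), and the control at the 5′ end was at 5360 against 4151 (0.37). All 3 controls were higher in the knockout, while the gene probe set, which names the same GenBank entry as the controls, was lower. A second Actb probe set was dim, with 82.7 in the wild type and a log2 ratio of 0.12.

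The direction of the Actb difference therefore depended on the probe set, and it did so under each scaling. The gene probe set had ratios of −0.69 with equal array medians, −0.60 after quantile normalization and −0.62 after loess, and the 3′ control had 0.18, 0.14 and 0.20. The suffix of the lower probe set marks a family of similar sequences. Other actin genes on the array went both ways, with Acta2 lower as given above, Actg2 at 220 against 246, Actc1 at 126 against 91.8, and Acta1 under the floor on both arrays. Gapdh, the other control gene with bright probe sets for 3 regions, also had higher control signals in the knockout, at 5329 against 4424 at the 3′ end (0.27) and 3291 against 2450 at the 5′ end (0.43). The 6 bacterial and phage controls with the suffix _at that passed the floor on both arrays had log2 ratios from 0.01 to 0.36, with a median of 0.11. The 4 such controls with the suffix _st, which were dimmer than their _at counterparts, had ratios from 0.73 to 1.55. The 3′ control was brighter than the 5′ control by 2.42-fold in the knockout and 2.54-fold in the wild type for Actb. What part each of these has in the Actb values was not tested.

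**Figure D2:**
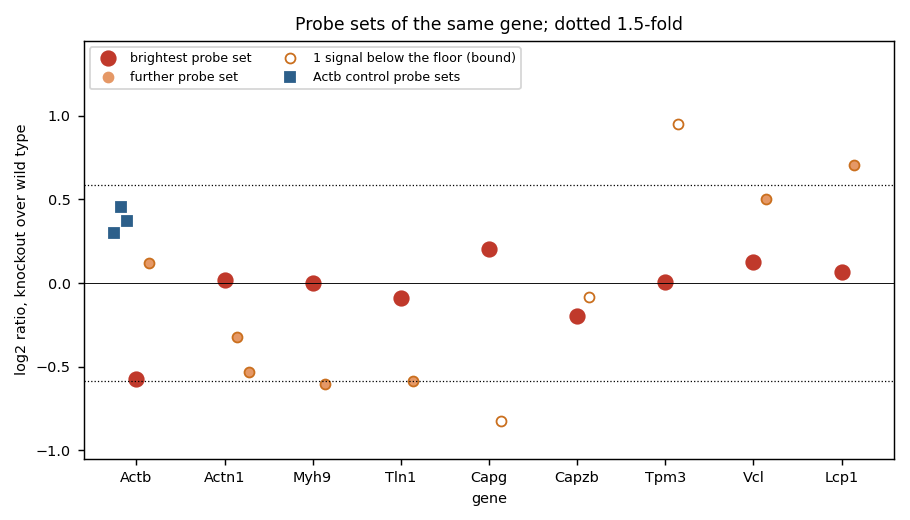
Log2 ratios of knockout over wild type for the 9 actin cytoskeleton genes with several probe sets above the floor on at least 1 array. Large red points are the brightest probe set of a gene, orange points the further ones, open points have 1 signal below the floor and are bounds, and blue squares are the 3 Actb control probe sets, which lie at 0.30 to 0.46 against −0.57 for the Actb gene probe set.

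Actin genes are textbook targets of serum response factor, which binds the CArG box, an A/T-rich element between CC and GG. Promoter sequence, from 250 bases before to 50 after the transcript start, was found for 42 of the 44 genes in RefSeq (GRCm38.p6), and 5 of the 42 (11.9%) held a CArG box on either strand in at least 1 listed promoter, against 1.81% of all 27025 genes with a promoter there. The 5 sequences are shown because they are the only matches among the actin cytoskeleton genes. The 10 bases of the box are in capitals, and each sequence is read 5′ to 3′ on the gene's strand and ends before the transcript start.
Actg1, chr11:120348551-120348610, minus strand: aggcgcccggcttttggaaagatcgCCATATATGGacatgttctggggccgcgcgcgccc
Vcl, chr14:20929148-20929205, plus strand: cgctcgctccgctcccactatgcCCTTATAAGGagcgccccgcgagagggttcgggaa
Myl6, chr10:128493025-128493084, minus strand: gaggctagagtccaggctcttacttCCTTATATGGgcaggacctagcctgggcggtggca
Vil1, chr1:74409286-74409345, plus strand: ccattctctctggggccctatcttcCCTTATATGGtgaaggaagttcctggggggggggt
Arpc4, chr6:113377863-113377897, plus strand: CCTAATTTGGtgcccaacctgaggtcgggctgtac

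The box began 90 bases before the start in Actg1, 227 in Vcl, 50 in Myl6, 73 in Vil1 and 250 in Arpc4, where it lies at the edge of the window. The genes with a box did not share a direction. Actg1 (0.20) and Vcl (0.13) were slightly higher in the knockout, Arpc4 (−0.11) was slightly lower, and Myl6 and Vil1 were below the floor. A match is a description of these letters and not of binding.

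The Arp2/3 complex is the machine of branched actin growth, and 5 of its 8 listed genes were measured. All 5 lay within 1.11-fold of the wild-type level. Actr3, the gene of the actin-related subunit Arp3, was at 7909 in the knockout against 7505 in the wild type (log2 ratio 0.08). Arpc2, which encodes a subunit of the complex's core, was at 4193 against 4010 (0.06). Both were close to equal, and both turned slightly below 0 when the array medians were made equal, Actr3 also after loess.

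The other 3 subunits had dimmer probe sets and were slightly lower in the knockout. Arpc5 was at 471 against 511 (−0.12), Arpc1a at 176 against 195 (−0.15) and Arpc4 at 75.8 against 81.8 (−0.11). These 3 kept a ratio below 0 under each of the processing settings tried that gave them a value. Floor changes, no rescaling and equal array medians could not have turned them above 0. Was, the gene of the Wiskott-Aldrich syndrome protein, which turns on the Arp2/3 complex in blood cells, was at 267 against 268 (−0.01). Coro1a, whose protein coronin 1A binds filaments and the Arp2/3 complex in leukocytes, was at 699 against 620 (0.17), slightly higher in the knockout.

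The genes of monomer handling and filament disassembly ran from the widest of the 35 ratios to some of the closest. Cap1, whose protein frees actin monomers from cofilin for a new round of growth, was at 87.5 in the knockout against 44.6 in the wild type. It was 1.96-fold higher (log2 ratio 0.97), the highest of the 35 ratios, but from 1 dim probe set whose wild-type signal was just above the floor of 36.4. In the same direction 6.37% of all genes above the floor, and 7.02% of those with a signal under 1000, were 1.5-fold or more higher. Cap1 had no value when the floor was raised to the 75th percentile.

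Wdr1, whose protein helps cofilin to take filaments apart, was at 2484 in the knockout against 1948 in the wild type (log2 ratio 0.35). It had the second highest ratio and was the bright actin gene furthest above 0. The partners that act with it went different ways. Cfl1, the gene of cofilin, was at 4164 against 3863 (0.11), and Dstn, the gene of the closely related destrin, was at 4626 against 5504 (−0.25).

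The genes of monomer-binding proteins were close to the wild-type level. Tmsb4x, the gene of thymosin beta-4, which holds monomers in reserve, was at 6394 in the knockout against 6438 in the wild type (log2 ratio −0.01). Its relative Tmsb10 was at 6921 against 6941, also close to equal. Pfn1, the gene of profilin, which brings monomers to growing ends, was at 190 against 173 (0.14). Of these, the thymosin genes were the closest to the wild-type level.

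Among the capping genes, both subunits of the capping protein that closes barbed ends were slightly lower in the knockout, with Capza2 at 2151 against 2425 (log2 ratio −0.17) and Capzb at 1279 against 1468 (−0.20). Both stayed below 0 in every setting tried, but floor changes, no rescaling and equal array medians could not have turned them above 0. Capg, the capping protein gene of macrophages, was at 144 against 125 (0.20), and Gsn, the gene of the severing protein gelsolin, was at 386 against 346 (0.16). A second Capg probe set, with a family suffix, went the other way. It was at 64.4 in the wild type and 30.4, below the floor, in the knockout (at least 1.77-fold lower). Capg therefore has no settled direction here. Vil1, the gene of villin of intestinal microvilli, was below the floor on both arrays.

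Vasp, whose protein speeds growth at barbed ends and keeps capping protein away, was at 1592 in the knockout against 1908 in the wild type (log2 ratio −0.26). It was the third lowest of the 35 ratios. Of the settings tried, only quantile normalization (−0.25) and loess (−0.27) could have turned it above 0. Its relative Evl was not analysed here.

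**Figure D3:**
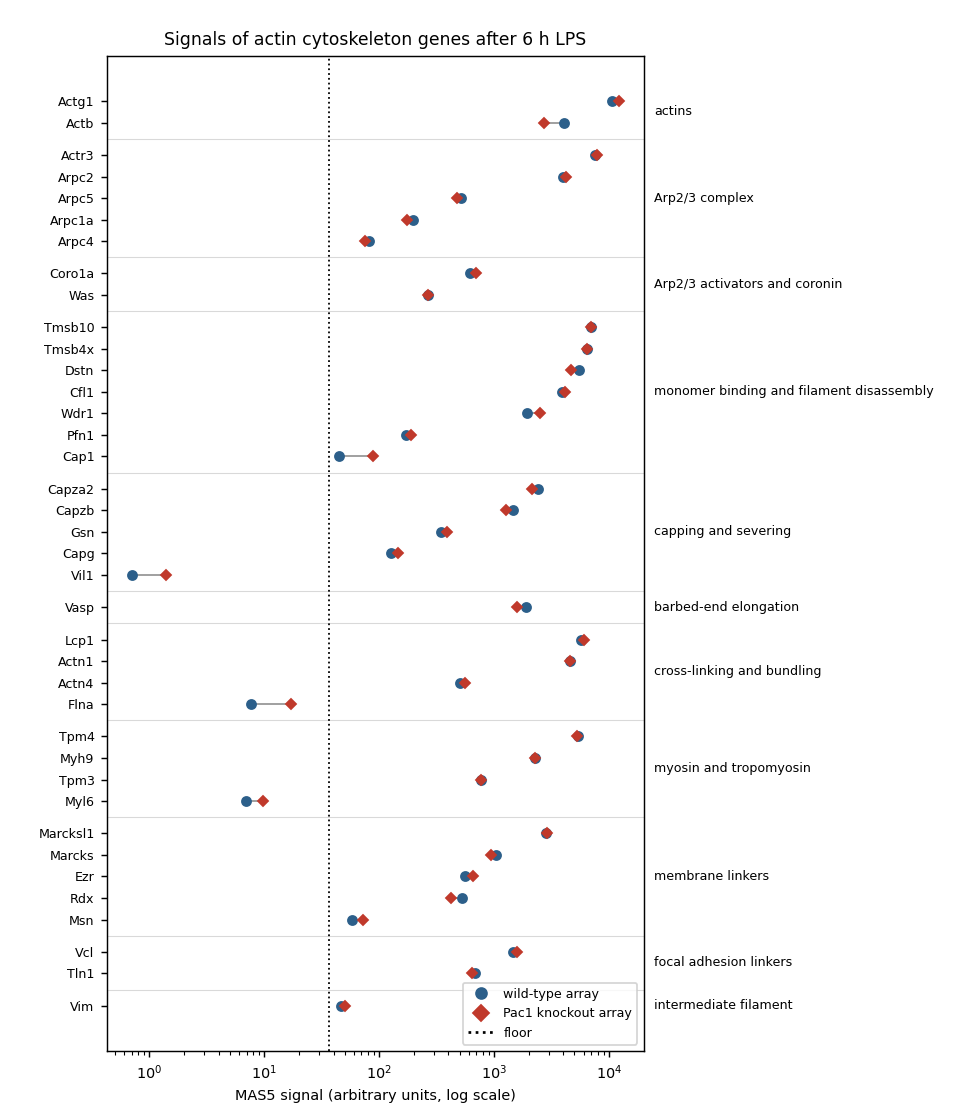
MAS5 signals (log axis) of the 38 actin cytoskeleton genes with a probe set of their own on the wild-type array (blue circles) and the Pac1 knockout array (red diamonds), grouped by role, with the floor of 36.4 as a dotted line. Most pairs of points overlap or touch, Actb and Cap1 are the pairs furthest apart above the floor, and Vil1, Flna and Myl6 lie below it.

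Among the cross-linking genes, Actn4 was slightly higher in the knockout in each planned setting. Floor changes, no rescaling and the mean over probe sets could not have altered its sign. Lcp1 and Actn1 took both signs. Both were below 0 with equal array medians, after quantile normalization and after loess, and Actn1 also with the mean over probe sets and without probe sets marked for cross-hybridisation. Lcp1, the gene of the leukocyte bundling protein L-plastin, was at 6014 in the knockout against 5753 in the wild type (log2 ratio 0.06). A second, dimmer Lcp1 probe set was at 209 against 128 (0.71), in the same direction but further from 0. Actn4, an alpha-actinin gene, was at 563 against 501 (0.17).

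Actn1, the other alpha-actinin gene, was at 4612 against 4560 (0.02) from its brightest probe set, which has a family suffix. Its further probe sets were lower in the knockout, at 418 against 522 (−0.32) and 62.0 against 89.5 (−0.53). The brightest probe set was thus the only one of the 3 with a ratio above 0. Only the dimmest of the 3 was not marked for cross-hybridisation. Flna, the gene of filamin A, was listed at 16.9 against 7.70, both below the floor.

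Myosin and tropomyosin genes were the closest group, with all 3 measured genes at most 1.01-fold apart. Myh9, the heavy chain of the non-muscle myosin II of macrophages, was at 2282 in the knockout against 2285 in the wild type. Tpm4 was at 5263 against 5334 (log2 ratio −0.02) and Tpm3 at 766 against 761 (0.01); both encode tropomyosins, which wind along filaments. Further probe sets of Myh9 and Tpm3 stood apart from these. For Myh9 a probe set with a family suffix was at 386 against 586 (−0.60), and for Tpm3 a dim one was at 70.5 against a wild-type signal of 7.10, below the floor, at least 1.94-fold higher. Myl6, a light chain of the same myosin, was below the floor on both arrays.

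Among the genes that tie filaments to the membrane, the 3 related ERM genes differed in direction. Ezr (ezrin) was at 653 in the knockout against 557 in the wild type (log2 ratio 0.23). Msn (moesin) was at 72.7 against 57.7 (0.33) from a dim probe set, the third highest ratio. Rdx (radixin) was at 423 against 528 (−0.32), the second lowest ratio after Actb. Each kept its sign in every setting that gave it a value. Floor changes and no rescaling could not alter these signs, and equal array medians could only lower the ratios.

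The MARCKS genes encode membrane proteins that bind actin and are released by protein kinase C. Marcks, which LPS is known to induce in macrophages, was at 935 in the knockout against 1031 in the wild type (log2 ratio −0.14). Marcksl1 was at 2872 against 2816 (0.03). Of the genes that link filaments to integrins, Vcl (vinculin) was at 1590 against 1454 (0.13), with a second probe set at 55.6 against 39.3 (0.50). Tln1 (talin) was at 643 against 683 (−0.09), with a second probe set at 47.3 against 70.9 (−0.58). For both genes the second probe set went the same way as the first and was further from 0. Vim, the gene of vimentin, was at 49.9 against 46.4 (0.10), close to the floor.

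Without replicates, probe sets of the same gene show only how far 2 ratios of a gene differ. They share the same 2 arrays, so they hold no variation between arrays or preparations. Of the actin genes, 6 had 2 probe sets with both signals above the floor, and 2 of the 6 pairs (Actb and Actn1) went in opposite directions. The log2 ratios within those pairs differed by a median of 0.55, between 0.34 (Actn1) and 0.69 (Actb). Over all 520 genes with such pairs the median difference was 0.30 and the 95th percentile 1.01, and 44.4% of the pairs went in opposite directions. Apart from Cap1 and Actb, the ratio of an actin gene furthest from 0 was 0.35 (Wdr1). The median of 0.30 is a difference between 2 ratios and gives no error for a single ratio. The brightest probe sets of the 35 actin genes had a median mean signal of 1373. The 10 further ones had mean signals from 28.5 to 486, with a median of 67.4. Of these 10, 2 were 1.5-fold or more higher (Lcp1 and Tpm3) and 2 were 1.5-fold or more lower (Myh9 and Capg). With the brightest probe sets, 5 of the 45 actin probe sets above the floor were 1.5-fold apart and 0 were 2-fold apart after signals were raised to the floor. For Tpm3, Capg and Capzb, 1 of these probe sets has only a bound and may be 2-fold apart. Over all 5898 probe sets above the floor, 12.4% were 1.5-fold apart (6.53% higher and 5.85% lower) and 2.29% were 2-fold apart.

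Beyond the 44 genes, a list of 83 other genes of actin regulation was examined, of which 67 were on the array and 57 above the floor. Their median log2 ratio was 0.02, with 34 above and 23 below 0, and 0 were 2-fold apart after signals were raised to the floor. At 1.5-fold, 2 were higher (Plec among them) and 1 was lower (Rock1), where 6.37% of all genes were higher and 5.72% lower.

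At the upper end of the list stood Plec, the gene of the cytoskeletal linker plectin, at 493 in the knockout against 303 in the wild type (log2 ratio 0.70). Cotl1, a cofilin relative that binds filaments, was at 194 against 135 (0.52), and Sptan1, a spectrin gene, at 261 against 189 (0.47). Limk1, whose kinase inactivates cofilin, was at 322 against 225 (0.52). At the lower end, Rock1, the gene of a kinase that activates myosin, had the lowest ratio of the list, at 58.4 in the knockout against 102 (−0.81), from a dim probe set. Scin, a gelsolin relative, was at 50.9 against 67.7 (−0.41), Mylk, a myosin light chain kinase gene, at 71.7 against 92.0 (−0.36), and Nckap1l, a subunit of the WAVE complex of blood cells, at 355 against 452 (−0.35). When the floor was lowered to the 25th percentile, 5 of the list's then 65 genes were 2-fold apart (2 higher and 3 lower). Of all 7128 genes above that floor, 476 were 2-fold higher and 344 were 2-fold lower.

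The direction of a small ratio depended on how the arrays were scaled. With equal array medians, the median log2 ratio of all genes moved from 0.02 to −0.10 and that of the actin genes to −0.10, with 11 of 35 above 0 in place of 19. The median of the actin genes minus that of all genes lay between −0.02 and 0.01 in the 9 planned settings. Across these, 10 of the 35 genes stayed above 0 (among them Actg1, Cap1, Wdr1, Ezr and Msn). Another 15 stayed below 0 (among them Rdx, Vasp, Dstn, Capza2 and Capzb), and 10 took both signs. Actb is among the 15, at −0.23 with the mean over its gene probe sets, but not with its second probe set or its controls alone. Floor changes and no rescaling could not have changed a sign. Equal array medians only lowered the ratios, so that setting could not turn a gene above 0, which favours the count below 0. The mean over probe sets could act only on genes with several probe sets. Leaving out probe sets marked for cross-hybridisation could act only on genes that have them. For the other genes, only quantile normalization and loess could change a sign in either direction.

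**Figure D4:**
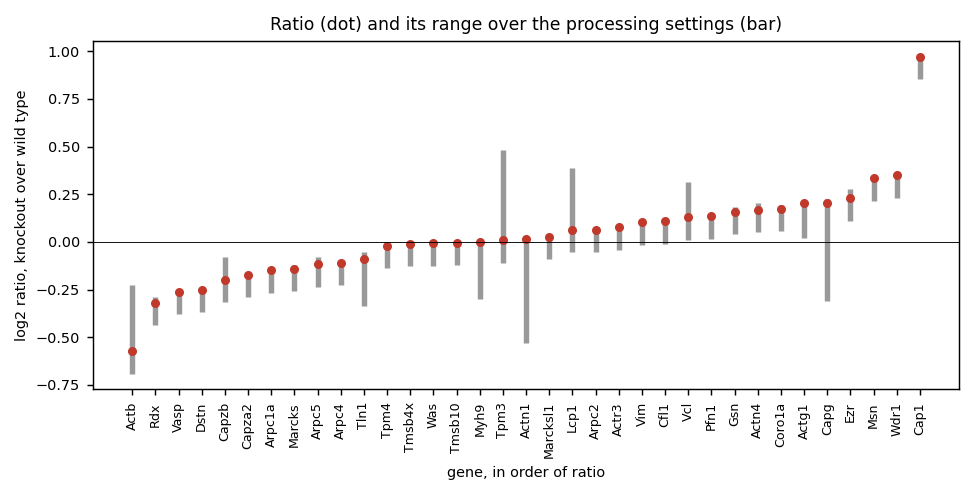
Log2 ratio of each of the 35 actin cytoskeleton genes (red point) and its lowest to highest value over the planned processing settings (grey bar), in order of ratio. The bars of Tpm3, Actn1, Lcp1, Myh9 and Capg are the long ones that cross 0, and Cap1 stays above 0.85.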

How the data were processed

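RNA of 1 Pac1 knockout and 1 wild-type preparation had been hybridised to Affymetrix arrays. The deposited values were 1 intensity per probe set on a linear scale, made by the authors with MAS5, per the submitters' processing notes. Such 3′-primed labelling weights 3′ ends, and signals of different probe sets cannot be compared with each other. Of 12654 probe sets, 10298 had 1 gene symbol, 363 several and 1993 none in the platform annotation; 10279 were matched to a reference gene table (GRCm38.p6), and 66 controls were kept apart. Arrays were scaled to the same 2% trimmed mean, signals were raised to a floor (36.4), and the probe set with the highest mean signal stood for a gene. Genes above the floor on at least 1 array entered. A fold against a signal below the floor is written "at least". This array generation is known to hold some probe sets against the wrong strand, which were not identified here. No test was possible. All 44 genes could be named; of the further list, the 5 highest and 5 lowest above the floor on both arrays were to be named, and some of these are not reported here. The genes and lists were chosen with earlier results of these data known. Scripts (Python 3.11.15, pandas 2.3.3, statsmodels 0.14.6) were tested on simulated data. Of the alternatives, 9 were planned, and 2 more (the Actb control, the second probe set) were chosen after seeing the data.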

Additional observations from a re-analysis of the deposited data

How the results depend on the processing

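No paired analysis was possible because each genotype has 1 array. None of the 35 actin genes was 2-fold apart in any planned setting. With no floor 2 of 38 were, Flna and Vil1, which are not among the 35 because both their signals lie below the floor. Of all 8220 genes, 876 were then 2-fold higher and 670 were 2-fold lower. The count 1.5-fold apart (1 of 35) was 2 of 35 with equal array medians, after quantile normalization and after loess (Actb joined Cap1). It was 2 of 36 when the floor was lowered to the 25th percentile, 3 of 38 with no floor and 0 of 31 when it was raised to the 75th. Over all genes, 214 of 5117 were 1.5-fold higher and 457 lower with equal medians. After quantile normalization these counts were 296 and 320 of 5120, and after loess 309 and 317 of 5118. They were 1038 and 816 of 7128 with the lowered floor and 1508 and 1183 of 8220 with no floor. With the raised floor they were 53 and 72 of 2675. Scaling to the same median moved the median log2 ratio of the actin genes to −0.10, the count above 0 to 11 and the median of the other genes of actin regulation to −0.10. Of those other genes, 5 of 65 were 2-fold and 10 were 1.5-fold apart under the lowered floor. With no floor, where dim signals enter, 6 and 11 of 67 were. Of all genes under the lowered floor, 476 of 7128 were 2-fold higher and 344 lower. The remaining all-gene counts are given above. With the mean over probe sets the actin genes' count above 0 was 17, and 2 of 35 signs changed. With equal medians 8 signs changed. Without probe sets marked for cross-hybridisation, Actb had no value and Actn1 was at −0.53. Both Actb settings added after seeing the data, the 3′ control (0.30) and the second probe set (0.12), turned its ratio above 0; the cause was not tested. Signals near the floor limit what Cap1, Vim, Msn and Arpc4 can show.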
